A study of Dimocarpus longan with 9 samples.

Results

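Homeobox genes of longan were described across 9 tissues of the cultivar “SJM” (sijimi). Members were the genes that the study's list of transcription factors gives the type HB. Of the HB, HB-other, HB-PHD, HD-ZIP, WOX and TALE types only HB occurs in that list, so the subclasses are not told apart. All 71 listed HB genes were found in the deposited table by identifier, among 1529 transcription factor genes and 30014 genes in all. The vegetative organs were root, stem and mature leaf, the floral stages were flower bud and flower, and the fruit was sampled as young fruit and, separately, as its pericarp or peel, its pulp, which is the fleshy aril, and its seed. Each was sequenced as 1 library made from total RNA, and no enrichment step is given in the sources used here. Tissue was the only labelled difference between libraries, and no treatment, age or number of trees is given in the labels. With 1 library per tissue there is no replicate error, so no difference between tissues was tested and every value describes 1 library. Expression is given as FPKM, the fragments of a gene normalised to the length of its exons and to the mapped fragments of its library, so that levels of different genes can be compared.

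Homeobox genes encode transcription factors that bind DNA through the homeodomain, a helix-turn-helix fold shared by plants and animals. In Arabidopsis and other plants the family includes the HD-ZIP proteins, in which a leucine zipper follows the homeodomain, the KNOX and BELL proteins, which pair with each other, and the WOX proteins. They are known for keeping stem cells in shoot and root meristems, for setting the upper and lower side of leaves, for vascular and epidermal cell identity, and for flower and ovule development. The identifiers of the deposited table carry no gene names. Only 3 members carry an annotation in the study's other supplementary tables, and the rest are described by identifier. Their genome positions and sequences were not analysed here.

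The summed FPKM over all genes was close between libraries, at 884470 in leaf to 1011820 in root. The steps of low FPKM values gave a depth relative to root of between -0.12 in pulp and 0.54 in leaf on the log2 scale. As an alternative scaling, a median ratio was taken for every library from the 12039 genes above 1 FPKM throughout. It gave factors from -0.25 in flower and in pulp to 0.27 in young fruit on the log2 scale. The main results that turn on this scaling are named. The tissue labels were held against transcription factor types known for an organ. The 6 genes of the YABBY type, which act in lateral organs of the shoot, summed to 5.33 FPKM in root and to between 72.5 FPKM in pericarp and 568 FPKM in seed in the other 8 tissues. The LFY gene, a floral meristem regulator, was highest in flower bud at 1.09 FPKM, but had 0.62 FPKM in root, 0.46 in seed and 0.1 in flower. The NOZZLE gene, known from spore-forming tissue, was also highest in flower bud, at 2.07 FPKM, against at most 0.5 FPKM elsewhere. Values this low say little about the labels.

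Most homeobox genes were expressed somewhere in the plant. A value above 0 FPKM in at least 1 tissue was found for 69 members, and 60 members (84.5%) reached 1 FPKM, against 84.6% of all transcription factor genes and 78.8% of all genes. Dlo_022443.1 and Dlo_023715.1 were listed at 0 throughout the plant, and a listed 0 is no proof of silence. In all 9 tissues 30 members held at least 1 FPKM, which is 42.3% of the members, against 40.2% of all genes. A level of 100 FPKM or more was found for 18 members, or 25.4%, against 21.1% of transcription factor genes and 15.4% of all genes. Members above 0 numbered 61 in flower bud (85.9%, against 77.0% of all genes and 81.8% of transcription factor genes). With shares in the same order, they numbered 58 in young fruit (81.7%, against 75.8% and 79.3%) and 58 in seed (81.7%, against 74.4% and 75.6%). They numbered 57 in flower (80.3%, against 74.7% and 79.1%), 56 in root (78.9%, against 74.0% and 78.7%) and 55 in stem (77.5%, against 73.6% and 76.9%). The lowest counts were 49 in pericarp (69.0%, against 72.6% and 74.2%), 49 in pulp (69.0%, against 64.4% and 59.4%) and 47 in leaf (66.2%, against 70.9% and 71.35%). Flower bud was thus highest for the members, for all genes and for transcription factor genes. The lowest tissue was leaf for the members and pulp for the other lists. At 1 FPKM or more the order was different. Root and young fruit each held 50 members (70.4%, against 61.6% and 62.6% of all genes, and 67.8% and 66.3% of transcription factor genes). Flower bud held 48 (67.6%, against 60.8% of all genes and 65.3% of transcription factor genes). Leaf and pulp each held 38 (53.5%, against 55.9% and 50.15% of all genes, and 57.2% and 46.7% of transcription factor genes). Over all genes, too, young fruit and root were highest and pulp and leaf lowest at this limit.

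**Figure D1:**
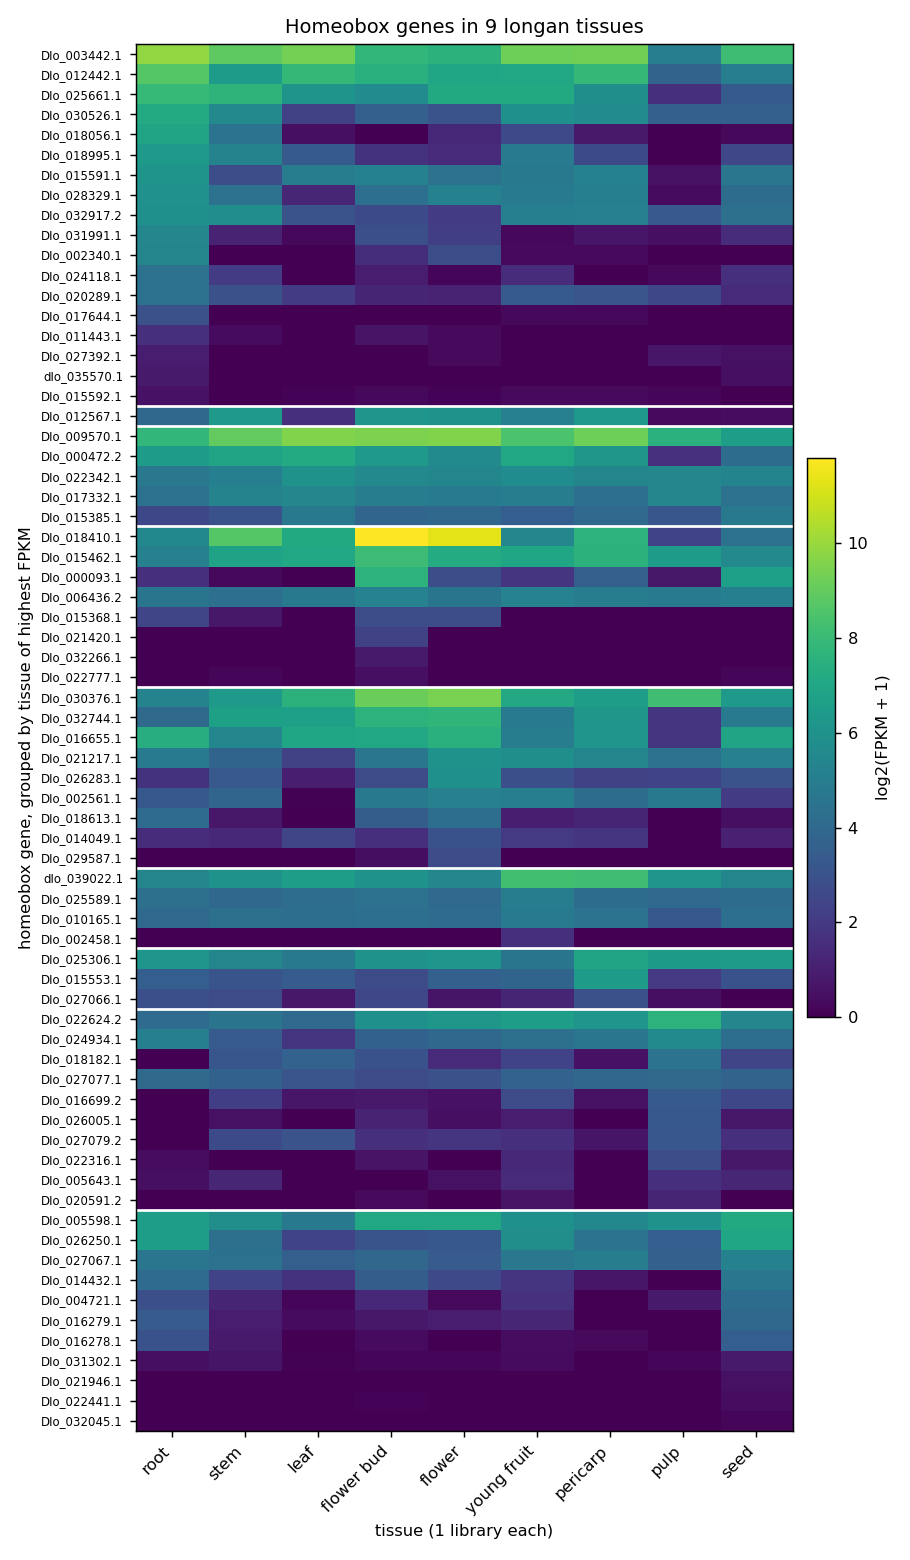
Levels of the 69 homeobox genes above 0 FPKM in some tissue, as log2(FPKM + 1) by colour, with 1 row per gene, 1 column per tissue library and white lines between the groups that share a tissue of highest FPKM. The brightest cells are those of Dlo_018410.1 in flower bud (3592 FPKM) and flower (2587 FPKM), and 18 genes peaked in root.

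The summed level of the family was highest in the floral tissues. Homeobox genes summed to 7010.5 FPKM in flower bud and 5968 FPKM in flower. Sums of 3531 FPKM in root, 3391 FPKM in pericarp, 3035 FPKM in leaf, 2876 FPKM in stem and 2869 FPKM in young fruit followed. With scaling, stem at 2768 FPKM stood just above leaf at 2727 FPKM. Seed with 1707 FPKM and pulp with 1417 FPKM had the lowest sums. Homeobox genes took 12.7% of the summed FPKM of all transcription factor genes in flower bud, 10.1% in flower and 9.69% in root. Elsewhere the share lay between 4.15% (pulp) and 5.17% (young fruit). That summed FPKM was itself low in root (36448), pulp (34160) and seed (34109), and between 55323 in flower bud and 73941 in pericarp elsewhere. Of the summed FPKM of all genes, homeobox genes took 0.349% in root, near the 0.345% in pericarp and 0.343% in leaf. The share was 0.769% in flower bud and 0.656% in flower. Much of the lead of the floral tissues was 1 gene. Without Dlo_018410.1 the sum was 3418 FPKM in flower bud and 3381 FPKM in flower, just below the 3486 FPKM of root. This order turned with the scaling, which gave 4016 FPKM in flower, 3531 FPKM in flower bud and 3340.0 FPKM in root without that gene.

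**Figure D2:**
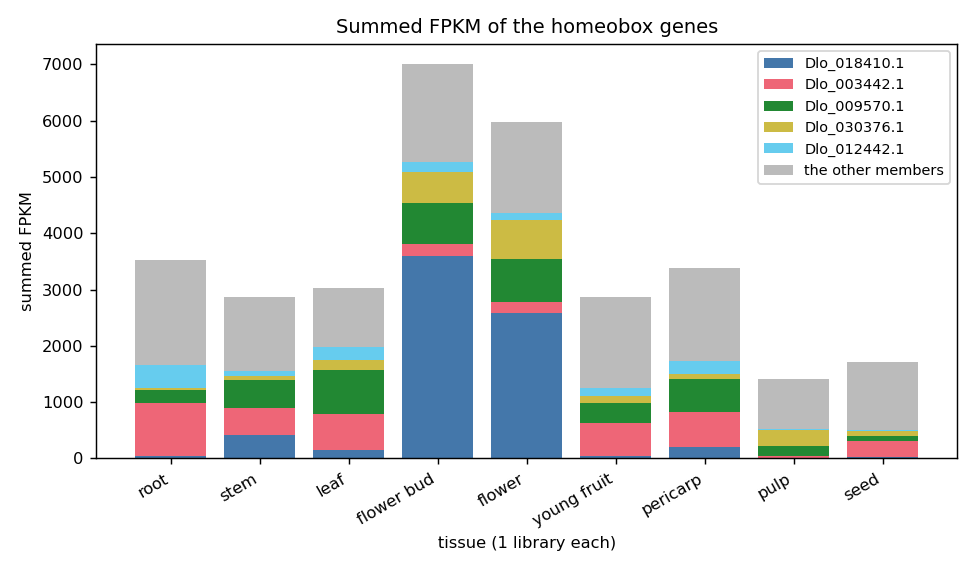
Summed FPKM of the 71 homeobox genes in each tissue library, on a linear axis from 0, with the 5 members of highest FPKM in colour and the other members in grey. Dlo_018410.1 made up 51.2% of the sum in flower bud and 43.4% in flower.

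Dlo_018410.1 had 3592 FPKM in flower bud, 2587 in flower, 420.3 in stem, 195 in pericarp, 142 in leaf, 44.5 in root, 41.9 in young fruit, 19.9 in seed and 4.22 in pulp. Flower bud and flower stood far above every other tissue, the flower bud value being 851 times that of pulp. It ranked 1 among the transcription factor genes of flower bud and 9 among all genes there. The profile nearest to it among the members was that of Dlo_032744.1 (r = 0.93 over the 9 libraries on log2(FPKM + 1), a description across libraries of unequal composition), which had 211 FPKM in flower, 196 in flower bud, 106 in stem, 99.3 in leaf, 76 in pericarp, 29.5 in young fruit, 28 in seed, 16.1 in root and 2.45 in pulp. Dlo_032744.1 was likewise highest in flower and flower bud and lowest in pulp, but stem and leaf followed it more closely.

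The next members by level were well above 0 in every tissue, but their highest tissues were not all the same. Dlo_003442.1 had 945 FPKM in root, 655 in leaf, 627 in pericarp, 585 in young fruit, 467 in stem, 286 in seed, 224 in flower bud, 189 in flower and 31.7 in pulp. It was highest in root, where it ranked 2 among the transcription factor genes, and it was the leading homeobox gene of root, young fruit, pericarp and seed. Dlo_009570.1 had 768 FPKM in leaf, 765 in flower, 712 in flower bud, 588 in pericarp, 502 in stem, 349.9 in young fruit, 223 in root, 186 in pulp and 92.9 in seed. Leaf and flower were equal within 1% for this gene, and scaling the libraries put flower first. It led the family in stem and leaf. Dlo_030376.1 had 693 FPKM in flower, 564 in flower bud, 290.4 in pulp, 189 in leaf, 141 in young fruit, 93.9 in pericarp, 81.9 in stem, 81 in seed and 38.5 in root, so that flower, flower bud and pulp lay above the rest, and it was the leading homeobox gene of pulp. Dlo_012442.1 had 413 FPKM in root, 232 in leaf, 231 in pericarp, 180.1 in flower bud, 133 in young fruit, 124 in flower, 88.6 in stem, 32.3 in seed and 12.7 in pulp, with root highest and pulp lowest. The gene dlo_039022.1 had 302 FPKM in young fruit, 289 in pericarp, 94 in leaf, 72.9 in pulp, 65.4 in flower bud, 63.1 in stem, 43.8 in flower, 41.7 in seed and 39.9 in root. Young fruit and pericarp stood apart from the other 7 tissues for it, and after scaling pericarp was the higher of the pair.

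Of the 3 annotated members, Dlo_032917.2 is annotated as REV (REVOLUTA), an HD-ZIP protein with a START domain, known in Arabidopsis for vascular development and for the upper side of lateral organs. It had 60.4 FPKM in root, 54.1 in stem, followed by 33.9 in pericarp, 33.7 in young fruit, 19.4 in seed, 8.7 in pulp, 7.01 in leaf, 5.28 in flower bud and 3.34 in flower. Root and stem were highest, young fruit and pericarp followed, and leaf, flower bud, flower and pulp all held less than 9 FPKM. In leaf it was -2.78 on the log2(FPKM + 1) scale relative to stem, and in young fruit 3 relative to flower. Dlo_022342.1 carries a homeobox together with DDT and WHIM domains, a set found in Arabidopsis proteins that join ISWI chromatin remodelling factors. It had 64.4 FPKM in leaf, 52 in young fruit, 46.3 in flower bud, 42.8 in pulp, 42.2 in pericarp, 41.7 in flower, 39.2 in seed, 33.4 in stem and 25.9 in root. Its highest value was 2.49 times its lowest. Dlo_031302.1 is annotated as HDG1 (HOMEODOMAIN GLABROUS 1), of the HD-ZIP class known in Arabidopsis for epidermal identity. It had 0.8 FPKM in seed, 0.57 in stem, 0.38 in root, 0.28 in young fruit, 0.16 in pulp, 0.13 in flower bud, 0.12 in flower, 0.05 in leaf and 0 in pericarp. No tissue reached 1 FPKM for this gene, and values this low are the least precise of the table.

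By the tissue of highest FPKM, 18 members peaked in root, 11 in seed, 10 in pulp, 9 in flower, 8 in flower bud, 5 in leaf, 4 in young fruit, 3 in pericarp and 1 in stem. Among the 60 members of at least 1 FPKM, root held 25%, against 19.6% of transcription factor genes and 17.3% of all genes. Pulp held 16.7%, against 7.58% of transcription factor genes and 11.6% of all genes, and flower held 15%, against 7.73% and 6.64%. Young fruit held 6.67% of the members, against 13.0% of transcription factor genes and 15.1% of all genes, and stem 1.67%, against 8.82% and 6.52%. The highest value was at least 2-fold above the next tissue for 19 of the 60 members (31.7%). The share was 35.4% of transcription factor genes and 28.6% of all genes. Of these 19 members 9 peaked in root. Scaling moved the highest tissue of 6 members and left 2 members with their highest value in leaf.

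Among the 15 root-peaking members of at least 1 FPKM, 9 had at least 2-fold more FPKM in root than in any other tissue. This share of 60% stood against 52.4% of transcription factor genes and 41.6% of all genes that peak in root. Dlo_018056.1 had 119.9 FPKM in root, 21.9 in stem, 5.02 in young fruit, 1.57 in flower, 0.76 in pericarp, 0.38 in leaf, 0.21 in seed and 0 in flower bud and pulp. Root was 5.48 times stem, the next tissue. Dlo_002340.1 had 40.2 FPKM in root, 6.18 in flower, 1.89 in flower bud, 0.22 in young fruit, 0.22 in pericarp and 0 in stem, leaf, pulp and seed, and flower was its next tissue. Dlo_017644.1 had 6.52 FPKM in root, 0.18 FPKM in young fruit and in pericarp, and 0 in the other 6 tissues. Its signal thus lay almost wholly in root. Dlo_011443.1 had 2.05 FPKM in root, 0.52 in flower bud, 0.28 in stem, 0.24 in flower and 0 in leaf, young fruit, pericarp, pulp and seed. At this level a listed 0 does not separate absence from low expression. Dlo_018995.1 had 81.1 FPKM in root, 38.3 in stem, 28.1 in young fruit, 9.04 in leaf, 5.36 in pericarp, 4.74 in seed, 2.31 in flower bud, 1.76 in flower and 0 in pulp, so that root, stem and young fruit lay above all other tissues. Dlo_025661.1 had 243 FPKM in root, 207 in stem, 144 in young fruit, 141 in flower, 68.7 in leaf, 57.7 in pericarp, 51.6 in flower bud, 9.2 in seed and 2.07 in pulp. For this gene root and stem were highest, and pulp and seed held less than 10 FPKM each.

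**Figure D3:**
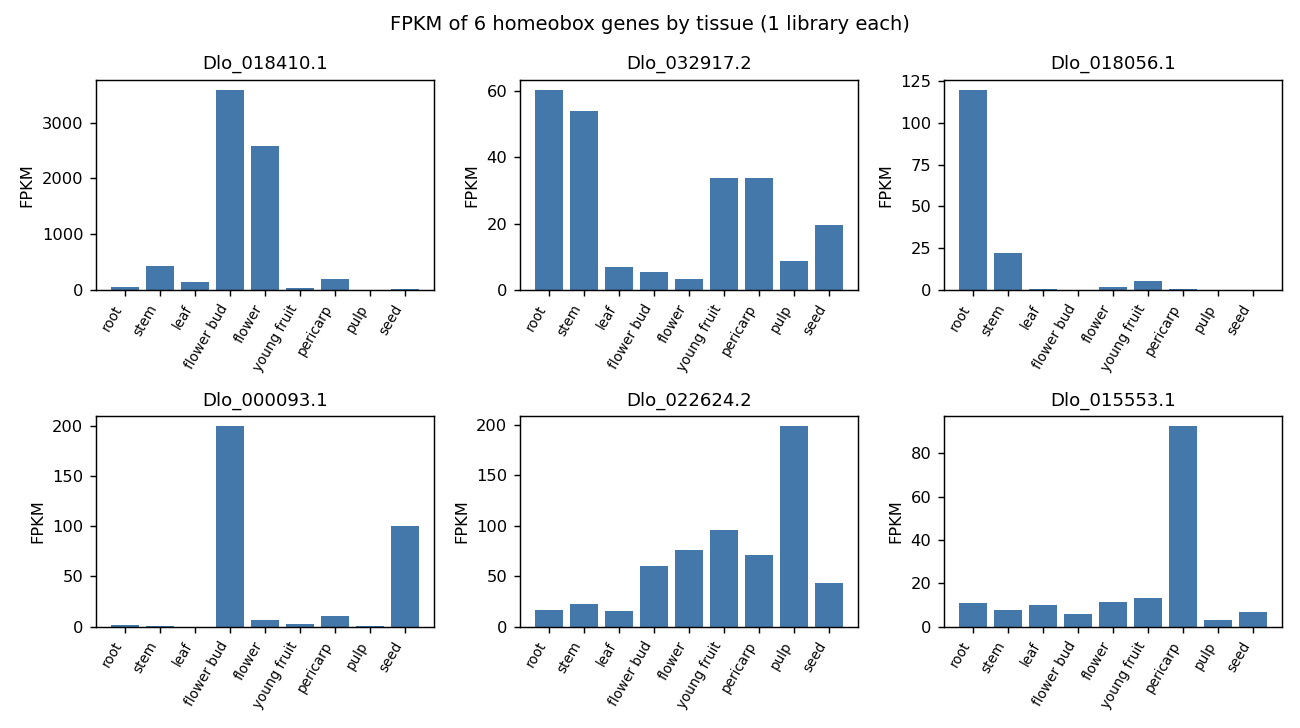
FPKM of 6 homeobox genes in each tissue library, with 1 panel per gene and a linear axis of its own from 0. Dlo_018410.1 stands out in flower bud and flower, Dlo_032917.2 (REV) in root and stem, Dlo_018056.1 in root (119.9 FPKM), Dlo_000093.1 in flower bud and seed, Dlo_022624.2 in pulp (198 FPKM) and Dlo_015553.1 in pericarp (92.4 FPKM).

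Leaf was the highest tissue of 5 members and stem of 1. Leaf held 8.33% of the members of at least 1 FPKM, against 14.0% of transcription factor genes and 14.0% of all genes. The only member that peaked in stem was Dlo_012567.1, which had 82.7 FPKM in stem, 82.2 in pericarp, 72.3 in flower bud, followed by 64.4 in flower, 34.8 in young fruit, 15 in root, 2.01 in leaf, 0.31 in seed and 0.23 in pulp. Stem and pericarp were equal within 1%, and leaf, pulp and seed held at most 2.01 FPKM. Dlo_000472.2, with its highest value in leaf, had 146 FPKM in leaf, 133 in young fruit, 117 in stem, 92.1 in root, 84.1 in flower bud, 75.8 in pericarp, 49.9 in flower, 16.9 in seed and 2.24 in pulp. It held at least 49.9 FPKM in 7 tissues, with pulp and seed far below. Dlo_015385.1 had 26.0 FPKM in leaf and in seed and 4.85 FPKM in root, the lowest, and scaling put seed first. None of the 5 members that peaked in leaf was 2-fold above its next tissue, against 18.8% of all leaf-peaking genes.

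Of the flower bud members at 100 FPKM or more, Dlo_000093.1 had the highest tau index, a measure of restriction explained further on. It had 199 FPKM in flower bud, 100.1 in seed, 10.8 in pericarp, 6.08 in flower, 2.45 in young fruit, 2.06 in root, 0.67 in pulp, 0.2 in stem and 0 in leaf. Flower bud and seed held most of its signal, and flower relative to flower bud was at -4.82 on the log2(FPKM + 1) scale. Dlo_021420.1 was listed above 0 in flower bud only, at 4.05 FPKM. Dlo_015368.1 had 5.98 FPKM in flower bud, 5.87 FPKM in flower, 4.54 FPKM in root, 0.72 FPKM in stem and 0 in the other 5 tissues, and scaling put flower first. Among the members that peaked in flower, Dlo_026283.1 had 60.3 FPKM in flower, 8.95 in stem, 7.23 in seed, 6.47 in young fruit, 5.42 in flower bud, 4.13 in pulp, 3.83 in pericarp, 2.35 in root and 1 in leaf, 6.73 times the next tissue. Dlo_002561.1 had 34.9 FPKM in flower, 32.4 in young fruit, 26.5 in flower bud, 26.2 in pulp, 17 in pericarp, 13.3 in stem, 8.57 in root, 3.11 in seed and 0.04 in leaf. Leaf was near 0 for it, while flower, young fruit, flower bud and pulp were its 4 highest tissues. Dlo_029587.1 had 5.58 FPKM in flower, 0.37 FPKM in flower bud and 0 in the other 7 tissues. Dlo_018613.1 had 18.1 FPKM in flower, 16.3 in root, 10.01 in flower bud, 1.35 in pericarp, 1.01 in young fruit, 0.7 in stem, 0.41 in seed and 0 in leaf and pulp. It joined flower, root and flower bud, with at most 1.35 FPKM elsewhere, and its profile was that nearest to Dlo_015368.1 (r = 0.95).

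Among the members that peaked in young fruit or pericarp, Dlo_002458.1 was listed above 0 in young fruit only, at 2.16 FPKM. Dlo_025589.1 had 30.9 FPKM in young fruit, 20.9 in flower bud, 19.6 in root, 17.6 in leaf, 17 in seed, 17 in pericarp, 15.5 in flower, 15.3 in pulp and 14.5 in stem, so that young fruit stood above 8 tissues of between 14.5 FPKM and 20.9 FPKM. Dlo_015553.1 had 92.4 FPKM in pericarp, 13.1 in young fruit, 11.2 in flower, 10.7 in root, 9.86 in leaf, 7.52 in stem, 6.95 in seed, 5.8 in flower bud and 2.87 in pulp. Pericarp was 7.04 times the next tissue, young fruit, the largest such ratio among members above 0 in all 9 tissues. Dlo_025306.1 had 117 FPKM in pericarp, 89.2 in seed, 84.7 in pulp, 73.2 in root, 73.2 in flower, 65.9 in flower bud, 41.5 in stem, 26.7 in leaf and 23 in young fruit, a broad profile with young fruit and leaf lowest. Dlo_027066.1 had 6.73 FPKM in pericarp, 6.36 in root, 5.61 in stem, 4.73 in flower bud, 1.3 in young fruit, 0.72 in leaf, 0.61 in flower, 0.4 in pulp and 0 in seed. Pericarp, root and stem lay close together for it.

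Pulp was the highest tissue of 10 homeobox genes and the lowest of others. The pulp-peaking members had a median of 8.85 FPKM in pulp. Dlo_022624.2 was the highest, with 198 FPKM in pulp, 95.4 in young fruit, 75.3 in flower, 70.4 in pericarp, 59.98 in flower bud, 43.5 in seed, 22.2 in stem, 16.3 in root and 15.5 in leaf. Pulp was 2.08 times young fruit, and root, stem and leaf lay below all reproductive tissues. Dlo_026005.1 had 8.52 FPKM in pulp, 1.22 in flower bud, 0.84 in young fruit, 0.69 in seed, 0.44 in stem, 0.38 in flower and 0 in root, leaf and pericarp. Dlo_022316.1 had 5.98 FPKM in pulp, 1.5 in young fruit, 0.67 in seed, 0.52 in flower bud, 0.3 in root and 0 in stem, leaf, flower and pericarp. These genes held pulp at least 3-fold above every other tissue. Dlo_018182.1 had 21.3 FPKM in pulp, 12.1 in leaf, 7.96 in stem, 6.87 in flower bud, 4.57 in seed, 4.12 in young fruit, 1.74 in flower, 0.48 in pericarp and 0 in root, with leaf and stem next. Dlo_016699.2 had 9.17 FPKM in pulp, 5.65 in young fruit, 4.95 in seed, 3.53 in stem, 0.76 in flower bud, 0.64 in leaf, 0.49 in flower, 0.43 in pericarp and 0 in root. Dlo_020591.2 had 1.34 FPKM in pulp, 0.53 FPKM in young fruit, 0.25 FPKM in flower bud and 0 in the other 6 tissues. Of the 10 pulp-peaking members 5 were listed at 0 in root, a share of 50%, against 14.0% of all genes that peak in pulp. These genes were not matched for level. Over all members of at least 1 FPKM, 8 were at 0 in root (13.3%, against 12.3% of all genes).

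Pulp was the single lowest tissue for 15 of the 60 members (25%, against 30.1% of transcription factor genes and 25.6% of all genes). Leaf was the lowest for 10 (16.7%, against 9.14% of all genes) and root for 8 (13.3%, against 7.09%). Examples among members above 100 FPKM elsewhere were the pulp values of 2.07 FPKM (Dlo_025661.1), 2.24 FPKM (Dlo_000472.2), 2.45 FPKM (Dlo_032744.1) and 2.51 FPKM (Dlo_016655.1), each the lowest of the 9. Pulp also had the lowest relative depth, and its part in these values was not tested. A lower level in an organ can come from fewer cells that express the gene or from less RNA in each, which cannot be told apart here.

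Root was the next highest tissue for 5 of the 7 seed-peaking members of at least 1 FPKM. The same share over all seed-peaking genes was not computed, so this count is a description only. Dlo_016278.1 had 10.6 FPKM in seed, 6.97 in root, 0.78 in stem, 0.31 in young fruit, 0.28 in flower bud, 0.22 in pericarp and 0 in leaf, flower and pulp. Dlo_016279.1 had 14.2 FPKM in seed, 9.51 in root, 1.43 in young fruit, 0.9 in stem, 0.84 in flower, 0.67 in flower bud, 0.28 in leaf and 0 in pericarp and pulp. Dlo_004721.1 had 16.9 FPKM in seed, 6.36 in root, 2.17 in young fruit, 1.59 in flower bud, 1.35 in stem, 0.83 in pulp, 0.23 in flower, 0.13 in leaf and 0 in pericarp. Seed and root held the 2 highest values of all 3 genes, and no other tissue exceeded 2.17 FPKM. Dlo_026250.1 had 123 FPKM in seed, 95.5 in root, 56.1 in young fruit, 21.7 in pericarp, 19.6 in stem, 10.6 in pulp, 8.53 in flower, 7.46 in flower bud and 4.18 in leaf, with the same order of seed and root at a higher level and with young fruit next. The member of highest FPKM in seed after Dlo_003442.1 was Dlo_005598.1, at 142 FPKM, but flower with 134 FPKM and flower bud with 131 FPKM were close to it, and scaling put flower first. Dlo_021946.1 (0.46 FPKM) and Dlo_032045.1 (0.17 FPKM) were listed above 0 in seed only.

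A further 15 members are given by their highest FPKM. In root these were Dlo_030526.1 (149.8 FPKM), Dlo_028329.1 (61.6 FPKM), Dlo_031991.1 (42.7 FPKM), Dlo_024118.1 (20.9 FPKM), Dlo_020289.1 (20.7 FPKM), Dlo_027392.1 (0.87 FPKM) and dlo_035570.1 (0.82 FPKM). In flower bud they were Dlo_015462.1 (273 FPKM) and Dlo_022777.1 (0.38 FPKM), and in flower Dlo_021217.1 (64.2 FPKM) and Dlo_014049.1 (6.89 FPKM). Dlo_010165.1 was highest in young fruit (27.0 FPKM), Dlo_024934.1 (48.3 FPKM) and Dlo_005643.1 (1.97 FPKM) in pulp, and Dlo_014432.1 in seed (24.1 FPKM). Dlo_031991.1 had 42.7 FPKM in root, 6.29 in flower bud, 3.5 in flower, 1.86 in seed, 1.22 in stem, 0.62 in pericarp, 0.39 in pulp, 0.19 in young fruit and 0.18 in leaf, and its profile was nearest to that of Dlo_002340.1 (r = 0.92). Dlo_030526.1 had 149.8 FPKM in root, 60.8 in young fruit, 50.2 in pericarp, 46.4 in stem, 11.5 in flower bud, 11.5 in seed, 11.1 in pulp, 7.11 in flower and 3.99 in leaf. Its profile was nearest to that of the REV-annotated gene (r = 0.89), with root, stem, young fruit and pericarp highest in both.

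The tau index of tissue restriction was computed from log2(FPKM + 1). It is 0 for a gene of equal values and 1 for a gene found in 1 tissue alone. The median tau of the 60 members of at least 1 FPKM was 0.433, against 0.459 for transcription factor genes and 0.393 for all genes. A tau of at least 0.9 was reached by 6 members (10%, against 10.7% of transcription factor genes and 9.02% of all genes). They were Dlo_017644.1 and Dlo_011443.1 in root, Dlo_021420.1 in flower bud, Dlo_029587.1 in flower, Dlo_002458.1 in young fruit and Dlo_020591.2 in pulp, and none of them exceeded 6.52 FPKM. Only 1 tissue was above 0 for 5 members (7.04%, against 9.06% of all genes), of which Dlo_032266.1 in flower bud (0.79 FPKM) and the 2 seed genes were under 1 FPKM.

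At the other end, a tau under 0.2 was found for 11 members (18.3%, against 24.7% of all genes). By the ratio of highest to lowest value, the steadiest members at or above 1 FPKM throughout were Dlo_006436.2, Dlo_025589.1 and Dlo_017332.1. Dlo_006436.2 had 36.9 FPKM in flower bud, 36.6 in young fruit, 32.7 in seed, 30.3 in pericarp, 28.6 in pulp, 26.4 in leaf, 22.9 in flower, 22.9 in root and 19 in stem, a ratio of 1.94. The ratio was 2.13 for Dlo_025589.1 and 2.33 for Dlo_017332.1, which ranged from 18.7 FPKM in pericarp to 43.7 FPKM in leaf. Scaling put pulp first for Dlo_017332.1, with 51.9 FPKM against 39.3 FPKM in leaf and 17.8 FPKM in pericarp. These ratios are of deposited values and were not recomputed after scaling.

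For each pair of tissues, genes above 0 in either tissue entered the count, and those with a 2-fold or larger difference, that is 1 or more in size on the log2(FPKM + 1) scale, are called changed. Comparisons that share a library are not independent of each other. More homeobox genes were higher than lower in root, and more were lower than higher in leaf. In root, relative to stem, 24 of 61 members were higher (39.3%, against 18.6% of all genes and 24.8% of transcription factor genes). In the other direction 10 were lower (16.4%, against 14.9% and 24.3%). The largest changes were 5.37 for Dlo_002340.1 and -3.21 for Dlo_018410.1. Relative to leaf, root had 29 of 59 members higher (49.2%, against 24.8% of all genes and 33.3% of transcription factor genes). It had 11 lower (18.6%, against 18.2% and 22.8%). Dlo_018056.1 led with 6.45, and Dlo_018182.1, at 0 in root, had -3.71. Leaf had 6 of 56 members higher than stem (10.7%, against 11.3% of all genes and 12.1% of transcription factor genes). It had 19 lower (33.9%, against 17.4% and 27.0%). Here the largest changes were 2.19 for Dlo_015591.1 and -4.80 for Dlo_012567.1. Among genes of at least 5 FPKM in some tissue, 73.6% of the members changed between root and leaf, against 49.6% of all such genes.

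**Figure D4:**
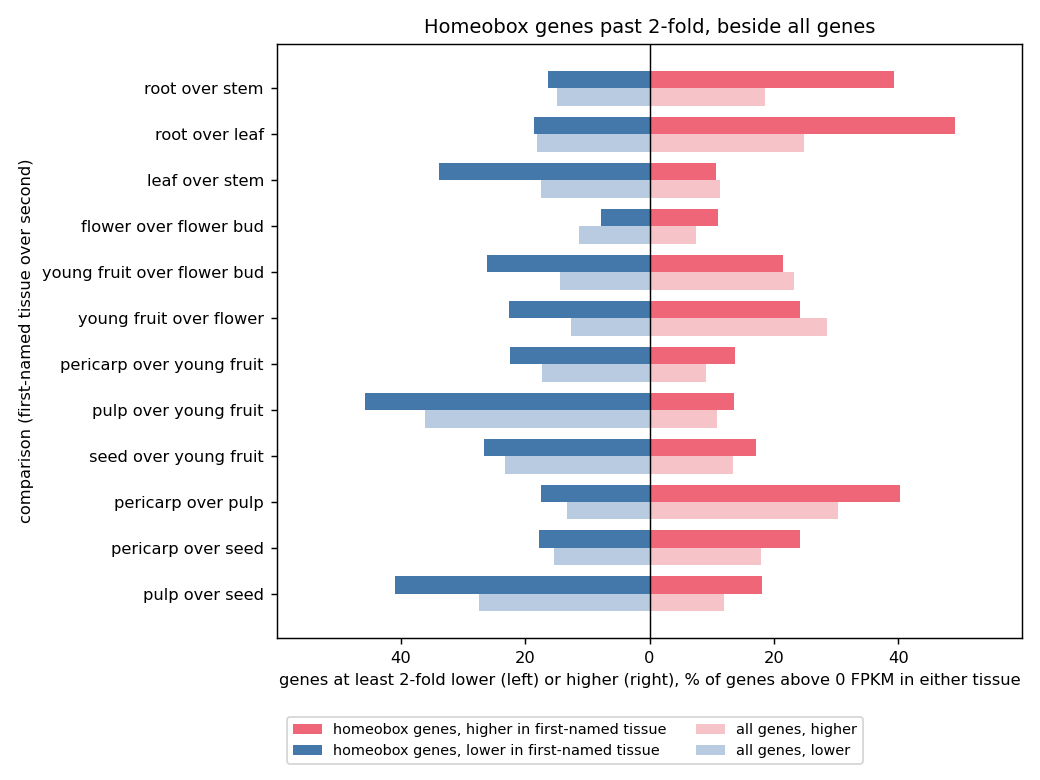
Homeobox genes (dark bars) and all genes (pale bars) at least 2-fold higher (right) or lower (left) in the first-named tissue of each of 12 comparisons, as a percent of the genes above 0 FPKM in either tissue. Root over leaf shows the longest bar to the right, 49.2% of the homeobox genes against 24.8% of all genes.

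Flower and flower bud were close to each other, and young fruit was further from both. In flower, relative to flower bud, 7 of 64 members were higher (10.9%, against 7.51% of all genes and 10.5% of transcription factor genes). In the other direction 5 were lower (7.81%, against 11.3% and 11.9%). This direction turned with a pseudocount of 0.1 FPKM, with 9 higher and 12 lower, and at 4-fold 2 members were higher and 2 lower. The extremes were 3.25 for Dlo_026283.1 and -4.82 for Dlo_000093.1. Young fruit had 14 of 65 members higher than flower bud (21.5%, against 23.3% and 24.8%) and 17 lower (26.2%, against 14.5% and 18.3%). Relative to flower it had 15 of 62 members higher (24.2%, against 28.5% and 28.3%) and 14 lower (22.6%, against 12.6% and 16.4%). After scaling, 41.4% of the members changed between young fruit and flower were higher in young fruit, against 51.7% as deposited. More members were lower than higher there also with a pseudocount of 5 FPKM (9 higher, 12 lower) and at 4-fold (7 higher, 9 lower). Dlo_018410.1 fell by 6.39 in young fruit relative to flower bud, and it fell by 5.91 relative to flower. Dlo_018995.1 led the higher members in both comparisons, with 3.13 and 3.40.

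The 3 parts of the fruit were set against young fruit and against each other. Shares in brackets are set against all genes first and transcription factor genes second. Pericarp had 8 of 58 members higher than young fruit (13.8%, against 9.16% and 14.4%) and 13 lower (22.4%, against 17.3% and 19.4%). The largest changes were 2.73 for Dlo_015553.1 and -2.22 for Dlo_016699.2. The direction of these counts turned with a pseudocount of 5 FPKM, with 7 higher and 3 lower, and at 4-fold, with 3 higher and 2 lower. In pulp, 8 of 59 members were higher than in young fruit (13.6%, against 10.9% and 10.1%). The 27 lower members (45.8%, against 36.1% and 46.8%) were near the share of transcription factor genes. The largest changes were 2.37 for Dlo_026005.1 and -5.56 for Dlo_025661.1. Seed had 11 of 64 members higher than young fruit (17.2%, against 13.4% and 16.1%) and 17 lower (26.6%, against 23.3% and 32.6%). Dlo_000093.1 with 4.87 and Dlo_012567.1 with -4.77 were the extremes there. Between the parts, pericarp had 23 of 57 members higher than pulp (40.4%, against 30.3% and 46.3%) and 10 lower (17.5%, against 13.2% and 10.05%). Dlo_012567.1 led with 6.08, and Dlo_018182.1 had -3.91. Pericarp had 15 of 62 members higher than seed (24.2%, against 17.9% and 28.6%) and 11 lower (17.7%, against 15.4% and 15.3%). The extremes were 5.99 for Dlo_012567.1 and -4.16 for Dlo_004721.1. With a pseudocount of 0.1 FPKM, 21 were higher and 22 lower. Pulp had 11 of 61 members higher than seed (18.0%, against 12% and 12.7%) and 25 lower (41.0%, against 27.4% and 35.45%). The extremes were 2.73 for Dlo_002561.1 and -5.92 for Dlo_000093.1. After scaling, 41.2% of the members changed between pulp and seed were higher in pulp, against 30.6% as deposited.

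Over the 12 comparisons, 11 of the 60 members of at least 1 FPKM changed in 9 or more (18.3%, against 10.8% of all genes of that level). Dlo_018410.1 and Dlo_000093.1 changed in 11. The members of at least 1 FPKM that changed in none were Dlo_006436.2, Dlo_025589.1 and Dlo_027077.1 (5%, against 9.56% of all such genes).

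Across genes, which are not independent replicates, the homeobox profiles of tissues were most alike between pericarp and young fruit (r = 0.94 over 69 members on log2(FPKM + 1)), flower and flower bud (0.94) and young fruit and stem (0.93). Over all 28598 genes above 0 the values were 0.91, 0.93 and 0.90. The least alike were pulp and root, at 0.42 over the members and 0.74 over all genes. The next lowest values over the members were 0.63 for pulp with flower bud and with flower. Pairs that share a tissue share its library. The r over the homeobox genes was below that over all genes in 26 of the 36 pairs, among them every pair with pulp, with root or with seed. The r over transcription factor genes was not computed, so this is not shown to be particular to homeobox genes.

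**Figure D5:**
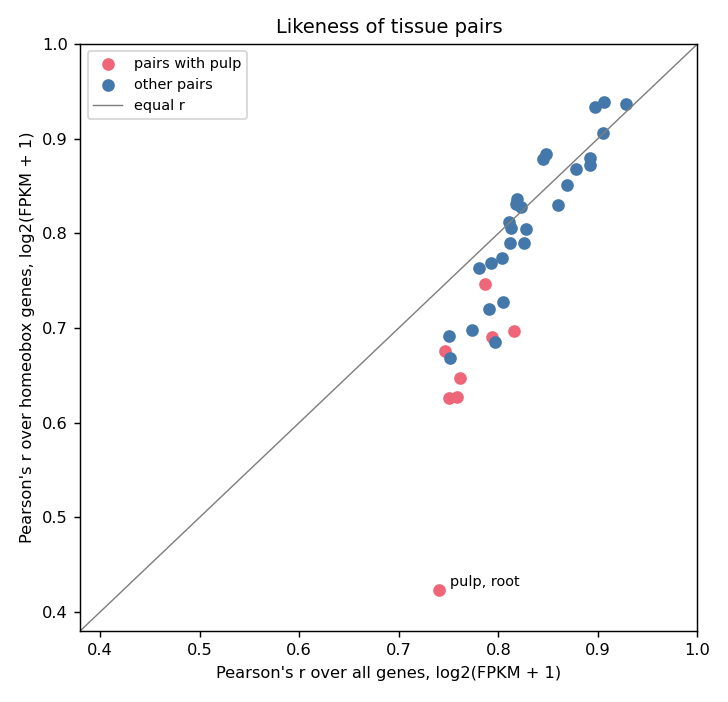
Pearson's r of log2(FPKM + 1) for the 36 pairs of tissue libraries, over the 69 homeobox genes above 0 (vertical axis) against that over all 28598 genes above 0 (horizontal axis), with pairs that include pulp in red. Pulp and root lie far below the line of equal r, at 0.42 against 0.74.

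Genes related to the family were taken from the same list by type. The zf-HD genes, a plant class with zinc fingers and a homeodomain of its own kind, numbered 14 in the list, of which 12 were in the table and all 12 were above 0 in some tissue. They summed to 684 FPKM in flower, 678 FPKM in pulp and 481 FPKM in flower bud, and to between 155 FPKM in root and 289 FPKM in seed elsewhere. Pulp was led by Dlo_026831.1, at 630.2 FPKM, and 7 of 9 zf-HD genes were lower in pulp than in young fruit, while 1 was higher. In that comparison 36.1% of all genes and 46.8% of transcription factor genes were lower in pulp, and 10.9% of all genes were higher. All 15 OFP genes of the list, whose Arabidopsis relatives bind KNOX and BELL proteins, were found, and 14 were above 0. They summed to 132 FPKM in root and to at most 31.9 FPKM elsewhere, but Dlo_012996.1 with 60.1 FPKM and Dlo_030940.1 with 50.8 FPKM made up most of the root sum. Without these 2 genes young fruit had the highest sum, at 27.9 FPKM, against 21.5 FPKM in root. In root 6 of the 14 peaked, 3 of them under 1 FPKM, where 16.8% of all genes above 0 peaked. Relative to stem, 5 of 12 OFP genes were higher in root (against 18.6% of all genes) and none was lower (against 14.9%). Relative to leaf, 6 of 12 were higher in root (against 24.8%) and none was lower (against 18.2%).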

How the data were processed

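Per the file headers, the deposited values are FPKM, with 2 decimals, for 9 libraries. The authors removed adaptors, low-quality reads and organelle and ribosomal contamination, and the remaining reads were aligned with TopHat to the draft longan genome (TopHat2 2.0.10 in the submitters' processing notes). The program that computed FPKM is not given in the sources used here. The genome came from another cultivar, “HHZ,” so divergent genes may lose reads and similar copies may exchange them. Each column was matched to its tissue by name, and 1 library per tissue allows no test and no interval.

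Members came from the list of transcription factors in the study's supplement, and related types (zf-HD, OFP, YABBY, LFY, NOZZLE) from the same list. Members and lists were chosen with earlier results of these data known. The limits were a 2-fold change on log2(FPKM + 1), a tau of 0.9 and 1 FPKM. The 12 comparisons are the 11 that the study names plus pericarp with young fruit, with the later stage on top where there is one. The scaling of sums without the highest members and the OFP sum without 2 genes were added after the data were seen. Background shares were computed over all genes of the table, members included.

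Named genes were the 3 annotated members, the 6 of highest FPKM, up to 3 per tissue by tau, those above 0 in a single tissue, the extremes of each comparison, pairs whose identifier numbers differ by at most 2, the 3 steadiest and those at 0 throughout. Dlo_032744.1, Dlo_022624.2, Dlo_016655.1, Dlo_026250.1 and Dlo_005598.1, and the 15 members given by their highest FPKM, and the 3 named zf-HD and OFP genes were added after their values were seen. The functions were tested on simulated data. Python 3.11.15, numpy 2.4.6, pandas 2.3.3 and matplotlib 3.10.9 were used.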

Additional observations from a re-analysis of the deposited data

How the results depend on the processing

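No paired analysis was possible because no tissue has a second library. Members above 0 FPKM stayed within 1.5 times in all 9 tissues at limits of 0.1 FPKM (44 to 60 members) and 1 FPKM (38 to 50). Without the 5 highest members the summed FPKM was 1867 in root, 1738 in flower bud, 1655 in pericarp, 1619 in young fruit, 1610.4 in flower, 1316 in stem, 1049 in leaf and 892 in pulp, and in seed 1195, within 1.5 times of its full sum. Root then had the highest sum, but with scaling, an alternative chosen after seeing the data, flower with 1913 and flower bud with 1796 stood above root with 1788. With scaling, all 9 sums stayed within 1.5 times (1685 to 7241 FPKM). Scaling left 2 members with their highest value in leaf, and counting only members of at least 1 FPKM left 7 in seed. The 6 tissue-restricted members became 12 at a tau of 0.8, 16 with tau of untransformed FPKM and 12 with no limit on FPKM. The 12 counts of changed members stayed within 1.5 times with scaling (14 to 40) and over genes of at least 5 FPKM (11 to 39). With a pseudocount of 0.1 FPKM, flower over flower bud had 21 and pericarp over seed 43 changed members, against 12 and 26, and in both the direction turned. With 5 FPKM added, flower over flower bud had 4 and pericarp over young fruit 10, where the direction turned, as it did at 4-fold. At 4-fold the counts were 17 for root over stem, 9 for leaf over stem, 4 for flower over flower bud, 15 for young fruit over flower bud, 16 for young fruit over flower, 5 for pericarp over young fruit, 18 for pulp over young fruit, 14 for seed over young fruit, 20 for pericarp over pulp and 18 for pulp over seed. The stricter limit and the larger pseudocount give fewer genes by construction, and the cause of the other shifts was not tested. Without counts, depth limits values under 1 FPKM most.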

Other observations

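In 5 pairs of homeobox genes the identifier numbers differ by at most 2, and their levels are set side by side here. Whether these genes are neighbours or copies of each other was not analysed, and similar copies could exchange reads. Dlo_016278.1 and Dlo_016279.1 had the most similar profiles of all 1485 pairs among the 55 members of at least 5 FPKM (r = 0.96 over the 9 libraries on log2(FPKM + 1), given as a description). Both were highest in seed and next in root, and the median r over those pairs was 0.07. The members of the other pairs differed. Dlo_015591.1 had 68 FPKM in root, 35.5 in pericarp, 35.4 in flower bud, 30.4 in leaf, 26.2 in young fruit, 23.6 in seed, 20.3 in flower, 5.89 in stem and 0.46 in pulp, while Dlo_015592.1 did not exceed 0.49 FPKM in any tissue. Dlo_027066.1 peaked in pericarp at 6.73 FPKM and was at 0 in seed, where Dlo_027067.1 had its highest value. Dlo_027067.1 had 35.6 FPKM in seed, 30.1 in pericarp, 25.1 in young fruit, 23.6 in root, 21.1 in stem, 13.9 in flower bud, 11.3 in pulp, 11 in leaf and 9.4 in flower. Dlo_027077.1 had between 5.66 FPKM in flower bud and 16.2 FPKM in pulp. Dlo_027079.2 had 8.1 FPKM in pulp, 7.14 in leaf, 5.39 in stem, 2.42 in flower, 2.08 in flower bud, 2.06 in seed, 2 in young fruit, 0.59 in pericarp and 0 in root, and the r of this pair was -0.23, with root among the highest tissues of one and at 0 in the other. Dlo_022441.1 had 0.30 FPKM in seed, 0.07 FPKM in flower bud and 0 elsewhere, and Dlo_022443.1 was listed at 0 throughout.

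Members with unlike identifiers also shared profiles. Dlo_027079.2 was nearest to Dlo_018182.1 (r = 0.94), both being at 0 in root and highest in pulp and then leaf. Dlo_026005.1 and Dlo_022316.1 (r = 0.93) were both led by pulp. In the opposite direction, Dlo_026005.1 ran against Dlo_003442.1 (r = -0.92), and the REV-annotated Dlo_032917.2 ran against Dlo_030376.1 (r = -0.91), which was highest in flower, flower bud and pulp, where Dlo_032917.2 held less than 9 FPKM. An r over 0.9 was found for 9 of the 1485 pairs, and the share of such pairs among all genes was not computed. All of these values are over libraries of different tissues, which are not replicates.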
